A study of Drosophila melanogaster with 17 samples.

Results

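This report describes glial RNA of head-injured Drosophila melanogaster on day 3 after injury, set against glial RNA of injured flies on day 1. The 6 libraries are the 3 TBI libraries of day 3 and the 3 TBI libraries of day 1, chosen by their labels from 17 libraries in all, and every one of the 13479 genes listed was considered. Of these genes, 12187 were above 0 in at least 1 of the 6 libraries and were tested, and 1292 were listed at 0 in all of them.

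The flies carried repo-GAL4, a driver active in nearly all glia, and UAS-GFP::RpL10A, a tagged protein of the large ribosomal subunit. Heads were shaken and sieved from frozen adult flies, ribosomes were pulled down through the tag and the RNA bound to them was sequenced (TRAP-seq), so the values stand for RNA on glial ribosomes together with whatever other head RNA came down with the beads. TBI flies were struck on the head by a solenoid (dCHI, a closed head injury without penetration of the cuticle) and sham flies were handled alike without the strike. All flies were collected at ZT0, the time of lights on, and the sham flies of days 3 and 1, with 3 libraries each, serve here as the same step in time without injury. The driver, the tagged ribosomal protein and the collection hour are shared by all groups, and every library is 1 pool of heads. The sample labels count these days as 6 and 3, and the headings of the supplementary tables give them as 3 and 1 days after injury. The labels state female flies and the study's text male flies, which was not resolved here. The labels do not say whether replicates were separate cultures, so p-values measure only the spread between these libraries.

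Glia of the fly brain take part in the immune answer to tissue damage. In flies, the Toll and Imd pathways switch on antimicrobial peptides, the JAK-STAT pathway answers to Unpaired cytokines and switches on Turandot stress peptides, and JNK signalling drives wound genes such as matrix metalloproteinases. Glia also rebuild their actin cytoskeleton when they extend processes and engulf debris.

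Glial markers were present in every library, but without a whole-head library among the 17, enrichment for glia cannot be measured here. In TBI libraries of day 3, repo, the pan-glial transcription factor, was listed at 44.9, 37.9 and 51.3 TPM, against 61.7, 43.9 and 31.1 TPM on TBI day 1. The astrocyte gene alrm was at 297, 309 and 434 TPM on TBI day 3 and at 351, 278 and 243 TPM on TBI day 1. The groups overlapped for both genes, 0 of 14 glial markers passed the test described below, and the GABA transporter gene Gat was the 1 of them at an unadjusted p under 0.05 in limma. Genes of other head cells were present too. The summed levels were 3504 to 3581 TPM on TBI day 3 and 3535 to 4871 TPM on TBI day 1 for 14 glial markers, and 43491 to 57070 TPM on TBI day 3 and 27339 to 35990 TPM on TBI day 1 for 15 photoreceptor markers. The 11 neuronal markers summed to 807 to 1451 TPM on TBI day 3 and 834 to 1071 TPM on TBI day 1. The genes listed added up to 832800 to 848367 TPM in the 6 libraries, and 10141 to 11027 genes were above 0. The correlation of log2(TPM + 1) across 8766 genes was 0.95 to 0.974 between TBI day 3 libraries, 0.93 to 0.972 between TBI day 1 libraries and 0.889 to 0.942 between the days.

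In the glial RNA of injured flies, many more genes were called lower than higher on day 3 relative to day 1. On day 3, 159 genes fell and 9 rose, which is 1.30% and 0.0738% of the 12187 tested and 1.38% for both directions. A gene was called here when its log2 difference (TBI day 3 minus TBI day 1, on log2(TPM + 1)) was at least 0.6 in size and its Benjamini-Hochberg adjusted p in limma was at most 0.1. Among the genes that fell were the cytokine gene upd3, the Toll ligand gene spz, the stress peptide genes TotM, TotC, TotA and TotX, the matrix protease gene Mmp1, the cytoplasmic actin genes Act5C and Act42A, and a block of gut protease genes. The median difference over all genes was -0.02. TPM is scaled to a fixed total, so a change in total RNA cannot be read from it. At an unadjusted p under 0.05, 854 genes (7.01%) were lower and 251 (2.06%) higher on day 3. All 159 falls and all 9 rises had no overlap between the 2 days, a separation that 1114 genes (9.14%) showed downward and 453 genes (3.72%) upward.

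**Figure D1:**
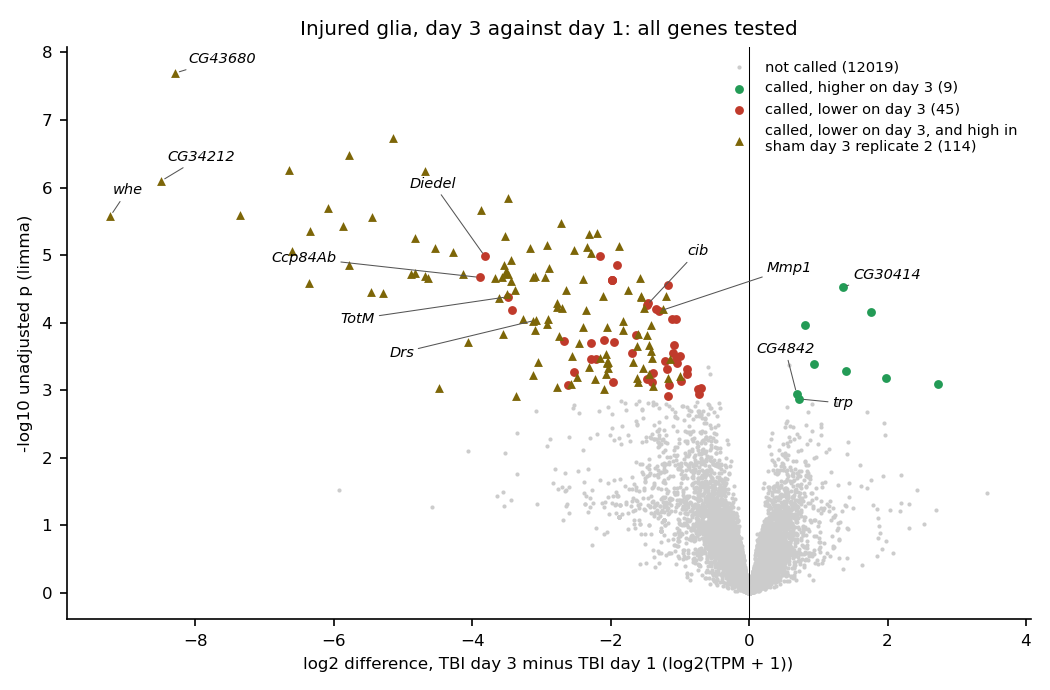
Each point is 1 of 12187 genes, with the log2 difference of TBI day 3 minus TBI day 1 on the x axis and minus log10 of the unadjusted limma p on the y axis. The 159 called falls on the left, split into 114 triangles that were also high in sham day 3 replicate 2 and 45 red circles that were not, outnumber the 9 called rises in green.

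The falls were split into 2 sets by their level in a single sham library. For 114 of the 159, sham day 3 replicate 2, a library from uninjured flies, stood at least 0.6 on the log2 scale above the other 5 sham libraries, as it did for 553 (4.54%) of all genes tested. The other 45 genes lacked that feature. All TBI day 1 libraries were above all sham day 1 libraries for 42 of the 45 and for all 114, where 1222 (10.0%) of the genes tested were so placed; the same TBI day 1 libraries selected the falls, so nothing is read from this. The median gene of the 45 was at 20.8, 22.6 and 19.1 TPM in TBI day 3 libraries and at 60.1, 63.8 and 57.5 TPM in TBI day 1 libraries, next to 14.9, 11.8 and 21.5 TPM on sham day 3 and 14, 15.3 and 13.5 TPM on sham day 1. The median gene of the 114 was at 0 in all 3 TBI day 3 libraries and at 8.95, 7.34 and 5.12 TPM on TBI day 1, next to 0, 6.66 and 0 TPM on sham day 3. The split did not sort genes by function. Peritrophin-15a was among the 114, and Peritrophin-15b, at means of 0 TPM on TBI day 3 and 1.76 TPM on TBI day 1, was among the 45. The TBI day 3 mean was under 1 TPM for 101 of the 114 and for 12 of the 45. The 2 sets are described in turn below. The number of falls depended on single libraries: it was 90 without TBI day 3 replicate 3, 99 without TBI day 3 replicate 2 and 426 without TBI day 1 replicate 1.

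Secreted signals were among the genes that fell. Diedel encodes a small secreted protein known as a brake on Imd signalling, and lies on chromosome arm 3R at positions 29493852 to 29494267 (release 6 annotation, as all positions here). It was listed at 38.1, 42.5 and 20.2 TPM on TBI day 3 and at 371, 499 and 541 TPM on TBI day 1. Every day 3 library lay far below every day 1 library, and the log2 difference was -3.82 (standard error 0.30, adjusted p = 0.00425). Sham libraries held 11.1, 8.34 and 37.3 TPM on day 3 and 6.06, 7.49 and 25.7 TPM on day 1, so the TBI day 3 values overlapped with those of sham day 3. The cytokine gene upd3, a ligand of the JAK-STAT receptor Domeless, was at 1.25, 0.934 and 0.739 TPM on TBI day 3 and at 4.4, 6.04 and 5.77 TPM on TBI day 1 (log2 difference -1.70, adjusted p = 0.0304). Its relative upd2 was at 0.525, 0.21 and 0.312 TPM on TBI day 3 and at 2.08, 1.57 and 1.26 TPM on TBI day 1 and did not pass (log2 difference -0.96, adjusted p = 0.11). Both cytokines stayed at a few TPM or less, and for both the days did not overlap.

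The Toll ligand gene spz was at 31.8, 31 and 33.1 TPM on TBI day 3 and at 74.4, 73.2 and 63.4 TPM on TBI day 1, with a log2 difference of -1.11 (standard error 0.13, adjusted p = 0.0127). It is the 1 gene of the 45 whose TBI day 3 libraries all lay below all sham day 3 libraries, which held 34, 35.7 and 34.8 TPM, a position that 365 (2.99%) of the genes tested shared. Of 18 Toll pathway genes tested, spz was the only one called. Among the others, the protease gene SPE, whose product cuts Spätzle into its active form, was at 118, 135 and 142 TPM on TBI day 3 and 110, 75.6 and 76.6 TPM on TBI day 1 (log2 difference 0.60, adjusted p = 0.353), and grass and modSP, genes of proteases upstream of it, had differences of 0.75 and 0.73 (adjusted p = 0.354 and 0.542). The median of the Toll list was 0.10 and changed sign in 1 alternative. ImpL2, a secreted antagonist of insulin-like peptides, was at 54.4, 74.4 and 63.1 TPM on TBI day 3 and at 136, 134 and 111 TPM on TBI day 1 (log2 difference -0.98, adjusted p = 0.0586), a call that held in 5 of 13 alternatives.

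Turandot genes encode secreted peptides made under stress and infection and were among the highest of the genes that fell. TotM (chromosome arm 2L, positions 5329857 to 5330464) was at 83.3, 42.1 and 32.1 TPM on TBI day 3 and at 653, 535 and 482 TPM on TBI day 1. The lowest day 1 library was several times the highest day 3 library, and the log2 difference was -3.49 (standard error 0.35, adjusted p = 0.00728). TotA and TotC, which lie next to each other on chromosome arm 3R (20871036 to 20871700 and 20872988 to 20873580), behaved alike. TotA was at 637, 310 and 288 TPM on TBI day 3 and at 1923, 1566 and 1885 TPM on TBI day 1 (log2 difference -2.21, adjusted p = 0.0347). TotC was at 383, 153 and 158 TPM on TBI day 3 and at 1084, 1030 and 1621 TPM on TBI day 1 (log2 difference -2.53, adjusted p = 0.0469). In both, TBI day 3 replicate 1 was the highest of the 3, and neither gene passed in 4 of the 6 fits that left out a library. TotX was at 37.5, 33.3 and 28.2 TPM on TBI day 3 and at 189, 96.7 and 163 TPM on TBI day 1 (log2 difference -2.10, adjusted p = 0.0216). The 4 other Turandot genes were at 2.11 TPM or less in all 6 libraries and did not pass. Over the 8 genes, 4 fell, beside 1.30% of all genes tested, and the median was -1.34, beside -0.02 over all genes. On TBI day 3, TotM, TotC and TotX were still above all sham day 3 libraries, a position held by 515 (4.23%) of the genes tested. The gaps were narrow. The lowest TBI day 3 and the highest sham day 3 library held 32.1 and 28.2 TPM of TotM, 153 and 146 TPM of TotC, and 28.2 and 22.9 TPM of TotX. TotA was not above them, because sham day 3 replicate 3 held 295 TPM.

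The 16 antimicrobial peptide genes, a list that follows the study's choice, all had a log2 difference below 0, as 52.7% of all genes did. Of the 16, which were chosen on these samples and so are no independent evidence of a direction, 1 passed in limma, Drs, while the unadjusted p was under 0.05 for 9. At that p 7.01% of all genes tested were lower. Drs (Drosomycin, an antifungal peptide and Toll target) was at 56.9, 139 and 77.5 TPM on TBI day 3 and at 546, 855 and 826 TPM on TBI day 1. The days were far apart, with a log2 difference of -3.08 (standard error 0.35, adjusted p = 0.0128). Sham day 3 held 19.2, 170 and 25.5 TPM, so replicate 2 of the uninjured flies was above all TBI day 3 libraries, which puts Drs among the 114 genes. AttB, an Attacin, was at 14.4, 14.1 and 12.7 TPM on TBI day 3 and at 20.7, 28.5 and 33.2 TPM on TBI day 1 (log2 difference -0.93, adjusted p = 0.184). CecA1, a Cecropin, was at 5.64, 6.97 and 6.58 TPM on TBI day 3 and at 11.4, 17.1 and 35.2 TPM on TBI day 1 (log2 difference -1.44, adjusted p = 0.303). Neither overlapped between the days.

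The Imd targets Dro and Mtk were more uneven. Dro (Drosocin) was at 259, 245 and 408 TPM on TBI day 3 and at 206, 1251 and 989 TPM on TBI day 1 (log2 difference -1.10, adjusted p = 0.748). Mtk (Metchnikowin) was at 500, 365 and 827 TPM on TBI day 3 and at 339, 1440 and 2167 TPM on TBI day 1 (log2 difference -0.94, adjusted p = 0.848). In both, TBI day 1 replicate 1 was below every day 3 library, and the other 2 day 1 libraries were above them. The median over the 16 genes was -1.12, and it stayed below 0 under each scaling, pseudocount, filter and library left out. On TBI day 3, 9 of the 16 were above all sham day 3 libraries (AttA, AttB, AttC, CecA1, CecB, CecC, DptA, Dro and Mtk), beside 4.23% of the genes tested. Listericin overlapped fully, at 714, 1557 and 1515 TPM on TBI day 3 and 687, 1482 and 1906 TPM on TBI day 1.

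**Figure D2:**
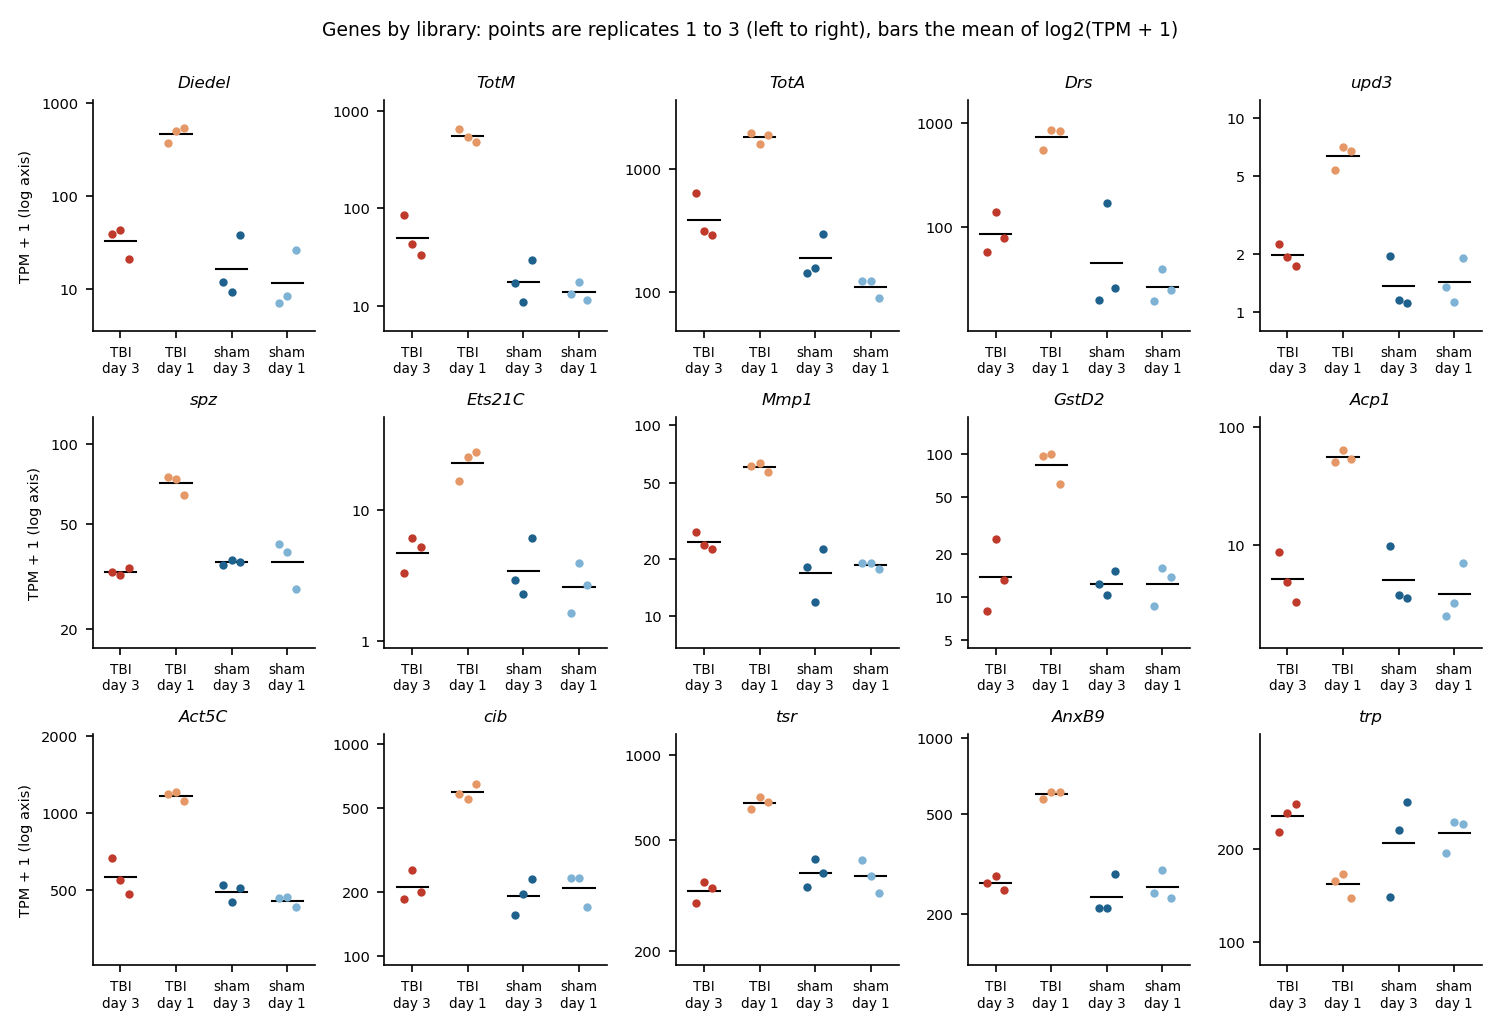
Levels of 15 genes in the 12 libraries of TBI day 3, TBI day 1, sham day 3 and sham day 1, as TPM + 1 on a log axis, with 1 point per library and a bar at the mean of log2(TPM + 1). In 14 panels the TBI day 1 points sit above the TBI day 3 points without overlap, and in the panel of trp they sit below; Drs in sham day 3 replicate 2 is at 170 TPM.

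Among 14 Bomanin and Daisho peptide genes, which are Toll targets, BomT1 fell, at 20.8, 20.2 and 17.6 TPM on TBI day 3 and 37.5, 40.6 and 59.7 TPM on TBI day 1 (log2 difference -1.17, adjusted p = 0.0862), a call that held in 3 of 13 alternatives. BomS1 was at 116, 206 and 132 TPM on TBI day 3 and 244, 283 and 557 TPM on TBI day 1 and did not pass (log2 difference -1.20, adjusted p = 0.354). The median of that list was -0.08 and changed sign in 3 alternatives. Of 13 peptidoglycan recognition proteins, which bind bacterial wall fragments, PGRP-SC2 fell (log2 difference -2.93, adjusted p = 0.0143), and sham day 3 replicate 2 held 6.6 TPM of it where TBI day 3 held 1.21, 2.62 and 0.862 TPM. Of 10 Imd pathway genes, 0 were called in limma (1 at an unadjusted p under 0.05). Rel, the Imd transcription factor, was at 77.2, 46.6 and 64.8 TPM on TBI day 3 and 81.7, 65.8 and 41.2 TPM on TBI day 1. The days overlapped for Rel, while 2 of the 10 genes were higher in all TBI day 3 libraries, among them Diap2, a ubiquitin ligase of the pathway, at 103, 88.5 and 112 TPM on TBI day 3 and 82.9, 83.3 and 87.1 TPM on TBI day 1 (log2 difference 0.25, adjusted p = 0.641).

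Of 15 genes of JNK signalling and wound response, 3 fell, beside 1.30% of all genes tested. Ets21C, an ETS transcription factor induced by JNK signalling, was at 2.29, 5.07 and 4.18 TPM on TBI day 3 and at 15.8, 24.5 and 26.8 TPM on TBI day 1 (log2 difference -2.28, standard error 0.33, adjusted p = 0.0347). Mmp1, a secreted matrix metalloproteinase on chromosome arm 2R (24671294 to 24688184), was at 26.7, 22.6 and 21.5 TPM on TBI day 3 and at 60.1, 62.4 and 56 TPM on TBI day 1. The replicates of each day lay close together, and the log2 difference was -1.30 (standard error 0.14, adjusted p = 0.0102). Mmp1 passed in all 13 alternatives, and its TBI day 3 values were at or above the top of sham day 3, which held 17.1, 10.9 and 21.5 TPM. Timp, which encodes the inhibitor of these proteases, fell as well, at 99.1, 89.6 and 101 TPM on TBI day 3 and 197, 193 and 156 TPM on TBI day 1 (log2 difference -0.90, adjusted p = 0.0435). Protease and inhibitor were thus both called in injured flies, but the call of Timp held in 7 of 13 alternatives. Timp on TBI day 3 overlapped with sham day 3 (103, 96.7 and 135 TPM), and on TBI day 1 with sham day 1 (142, 157 and 132 TPM). Its log2 difference between the days in sham flies was -0.37 (unadjusted p = 0.0543 in limma), and that of Mmp1 was -0.13. None of 6 engulfment genes passed in limma, 0 of them with an unadjusted p under 0.05. The engulfment receptor gene drpr was at 53.9, 24.4 and 26.3 TPM on TBI day 3 and 47.8, 36.6 and 27.7 TPM on TBI day 1.

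Genes of the actin cytoskeleton made up another part of the 45. This list of 29 genes was put together after their values had been seen, so its counts describe and support nothing. Of 28 tested, 6 fell, beside 1.30% of all genes tested, and 0 rose. The median was -0.39. The cytoplasmic actin gene Act5C was at 668, 546 and 484 TPM on TBI day 3 and at 1191, 1204 and 1119 TPM on TBI day 1 (log2 difference -1.06, standard error 0.15, adjusted p = 0.0347). Its relative Act42A was at 31.5, 28.9 and 30.8 TPM on TBI day 3 and at 77.7, 66.4 and 57 TPM on TBI day 1 (log2 difference -1.11, adjusted p = 0.0304). The days were clearly apart for both actins, and TBI day 3 was near sham day 3, where Act5C was at 524, 449 and 509 TPM. Among genes of actin binding proteins, cib (Ciboulot, a beta-thymosin) was at 185, 254 and 200 TPM on TBI day 3 and at 580, 550 and 645 TPM on TBI day 1 (log2 difference -1.48, adjusted p = 0.00919). For tsr (cofilin, which severs filaments) the values were 296, 350 and 334 TPM on TBI day 3 and 643, 711 and 680 TPM on TBI day 1 (log2 difference -1.05, adjusted p = 0.0127). cib passed in all 13 alternatives and tsr in 11. Other actin monomer binders did not pass: chic (profilin), capt and twf (twinfilin) had log2 differences of -0.66, -0.66 and -0.15 (adjusted p = 0.209, 0.497 and 0.938). Arp3, a subunit of the filament-branching complex, fell by 0.74 on the log2 scale (adjusted p = 0.0697), and its call held in 3 of 13 alternatives.

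AnxB9, an annexin that binds membranes in the presence of calcium, was at 265, 282 and 248 TPM on TBI day 3 and at 573, 606 and 611 TPM on TBI day 1. The replicates of each day were tight, and the log2 difference was -1.17 (standard error 0.11, adjusted p = 0.00589). It overlaps on the opposite strand of 3R with r-l, the gene of a pyrimidine synthesis enzyme (AnxB9 at 21065241 to 21070917, r-l at 21070557 to 21073319). Whether the quantification used strand is not stated, so the fall of r-l (log2 difference -1.08, adjusted p = 0.0241) cannot be told apart from that of AnxB9.

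Of 35 glutathione S-transferase genes, 3 fell, all of the GstD group on 3R, beside 1.30% of all genes tested. GstD2 was at 6.91, 24.3 and 12 TPM on TBI day 3 and at 95.4, 98.6 and 60.7 TPM on TBI day 1 (log2 difference -2.61, adjusted p = 0.0645), GstD9 differed by -1.48 (adjusted p = 0.0547) and GstD3 by -1.19 (adjusted p = 0.0433). GstD genes are close copies, so reads may be shared among them, and GstD2 and GstD9 passed in 5 of 13 alternatives each. Acp1, a protein of adult cuticle, was at 7.8, 3.85 and 2.28 TPM on TBI day 3 and at 49.4, 63.8 and 52.9 TPM on TBI day 1 (log2 difference -3.43, adjusted p = 0.0099). Ccp84Ab, another cuticle protein gene, was at 0.861, 2.07 and 1.79 TPM on TBI day 3 and at 25.3, 34.9 and 53.3 TPM on TBI day 1 (log2 difference -3.89, adjusted p = 0.00531). Both passed in all 13 alternatives. They were not typical of cuticle genes, since 2 of the 89 tested by family name fell (Ccp84Ab and Cpr49Ab) and the median of that list was -0.06. Dgat2, an enzyme of triglyceride synthesis, was at 0.673, 2.1 and 1.92 TPM on TBI day 3 and at 8.98, 10.2 and 7.07 TPM on TBI day 1 (log2 difference -1.97, adjusted p = 0.059). Of genes whose function is not given here, CG42867 was at 13.4, 12.5 and 15.4 TPM on TBI day 3 and at 47.6, 58.3 and 57.5 TPM on TBI day 1 (log2 difference -1.91, adjusted p = 0.00509), CG3348 differed by -1.64 (adjusted p = 0.0188) and CG16978 by -1.35 (adjusted p = 0.00977). The replicates of CG42867 were close together within each day.

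Small heat shock proteins, chaperones that hold unfolding proteins in solution, had a median of -1.62 over 7 genes, without a call. All the same, 6 were lower at an unadjusted p under 0.05 in limma, beside 7.01% of all genes tested. Hsp26 was at 10.8, 43.9 and 7.5 TPM on TBI day 3 and at 110, 173 and 139 TPM on TBI day 1 (log2 difference -3.08, adjusted p = 0.119). Hsp23 was at 8.09, 28.2 and 8.64 TPM on TBI day 3 and at 133, 77.3 and 35.3 TPM on TBI day 1 (log2 difference -2.41, adjusted p = 0.253). In both genes TBI day 3 replicate 2 stood above the other 2 libraries of that day, and the days did not overlap. In the uninjured flies Hsp26 was at 15.7, 117 and 19.2 TPM on day 3, again with replicate 2 far above the rest. Hsp70, Hsp90 and their partners differed less, with a median of -0.31 over 11 genes that changed sign in 1 alternative and with 0 called. Reads may be shared among the near-identical Hsp70 genes.

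**Figure D3:**
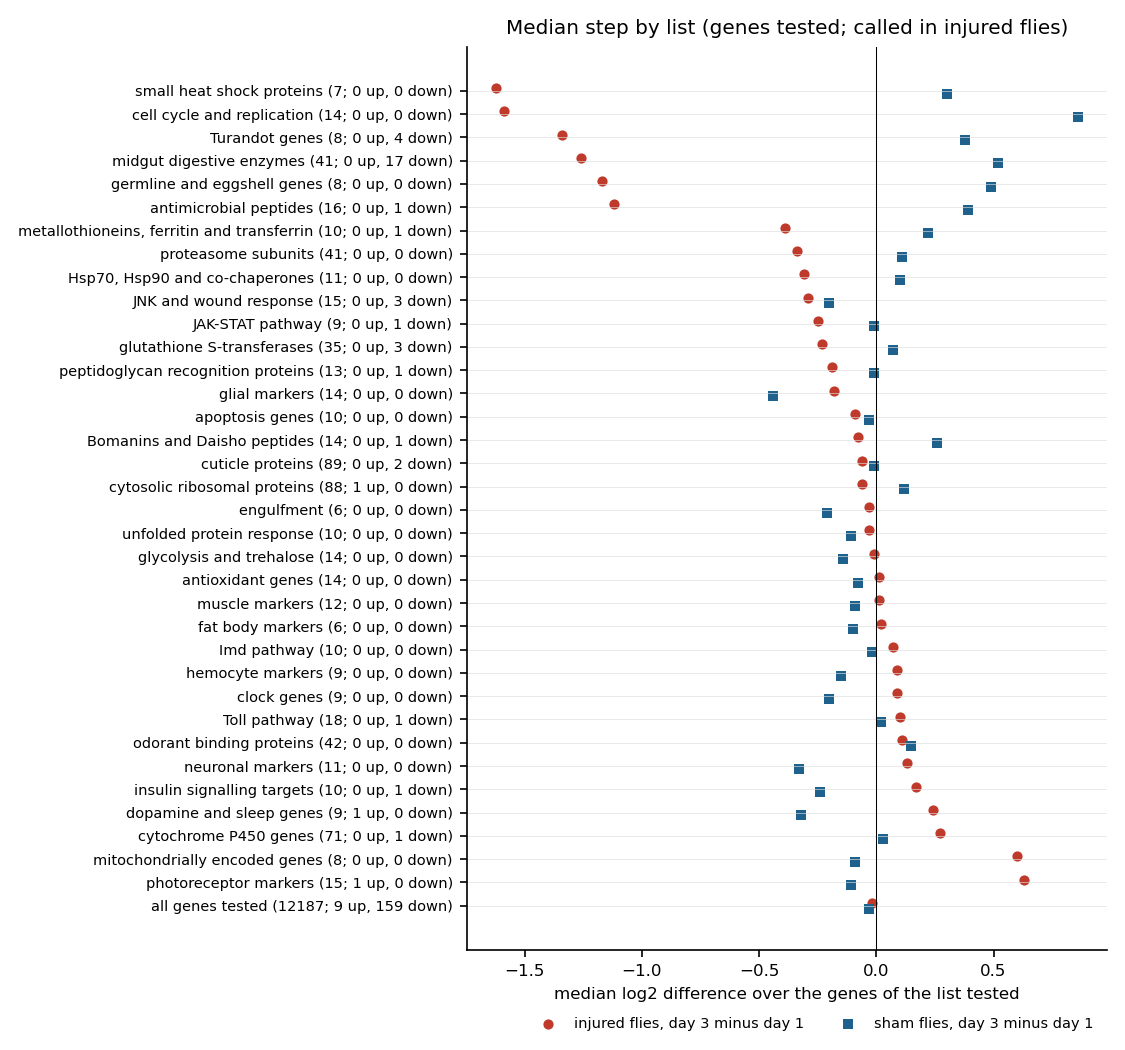
Median log2 difference of day 3 minus day 1 (x axis) over the genes of each list, with injured flies as red circles and sham flies as blue squares. The number of genes tested and of calls in injured flies stands beside each name, and 6 lists have injured medians between -1.62 and -1.12 while their sham medians lie above 0.

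The 114 falls that were shared with sham day 3 replicate 2 had larger differences (median -2.84) than the 45 (median -1.45). The largest of all was whe, at 0, 3.54 and 1.75 TPM on TBI day 3 and 2034, 1481 and 894 TPM on TBI day 1 (log2 difference -9.23, standard error 0.59, adjusted p = 0.00281). Sham day 3 held 0.592, 1650 and 0.738 TPM of whe, so that 1 uninjured library reached the level of injured day 1. CG34212 and CG43680, whose functions are not given here, had log2 differences of -8.50 and -8.29 and were at 1620 and 366 TPM in the same sham library. Of 41 midgut enzyme genes tested, 17 fell, beside 1.30% of all genes tested, in a list chosen with earlier results of these data known. Among them were the trypsin genes alphaTry and betaTry and the Jonah proteases Jon65Aiv and yip7. alphaTry was at 1.67, 0 and 1.44 TPM on TBI day 3 and 229, 481 and 254 TPM on TBI day 1, and at 0.251, 402 and 0 TPM on sham day 3 (log2 difference -7.35, adjusted p = 0.00281). alphaTry and betaTry are close copies and may share reads. Among the other large falls, MtnC, a metallothionein that binds metal ions, was listed at 0 in all TBI day 3 libraries and at 116, 149 and 30.3 TPM on TBI day 1, with 506 TPM in sham day 3 replicate 2. The rest of the 12 largest falls at 10 TPM or more were betaTry (log2 difference -6.65), lcs (-6.61), CG43679 (-6.34), CG33109 (-5.87), Ag5r (-5.79) and Jon65Aiv (-5.78), and yip7, which was listed at 0 in all TBI day 3 libraries and at 91.4, 85.9 and 38 TPM on TBI day 1.

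These genes were high and low together by library. Summed over 44 midgut enzyme genes, the level was 75.2, 48.2 and 52.5 TPM on TBI day 3 and 727, 1101 and 591 TPM on TBI day 1, next to 66.7, 924 and 82.8 TPM on sham day 3 and 72.1, 56.6 and 67.9 TPM on sham day 1. The 3 TBI day 1 libraries and sham day 3 replicate 2 thus formed the high set, and between 27 and 34 of the 44 genes were listed at 0 on TBI day 3, against 8 to 11 on TBI day 1. Genes of the germline and of dividing cells followed a related pattern that left out TBI day 1 replicate 1. Summed over 8 germline and eggshell genes, the level was 0.902, 0.744 and 1.29 TPM on TBI day 3, 2.41, 609 and 547 TPM on TBI day 1, and 1.99, 617 and 1.36 TPM on sham day 3. The thioredoxin gene dhd, which is used in the egg, supplied most of this: it was at 0.234, 0.28 and 0.554 TPM on TBI day 3 and at 1.06, 551 and 480 TPM on TBI day 1. What part RNA of gut or ovary cells had in the 114 falls was not tested, and in pooled heads fewer cells of a type and less RNA per cell cannot be told apart.

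For 14 genes of the cell cycle and DNA replication, all 14 differences lay below 0 (median -1.59), 11 had an unadjusted p under 0.05 in limma and 0 were called. Of all genes tested, 52.7% lay below 0 and 7.01% were lower at that p. PCNA, the sliding clamp of DNA polymerase, was at 1.43, 4.06 and 4.86 TPM on TBI day 3 and at 6.25, 43.6 and 36.8 TPM on TBI day 1. CycB, a mitotic cyclin, was at 0.406, 0.244 and 0.321 TPM on TBI day 3 and at 0.689, 57.2 and 37.8 TPM on TBI day 1. In both, TBI day 1 replicate 1 was close to day 3 and the other 2 day 1 libraries were not, and sham day 3 replicate 2 held 42.2 TPM of PCNA and 66.1 TPM of CycB. Without TBI day 1 replicate 1, 12 of the 14 were called, among 426 genes that fell, of which 302 were high in sham day 3 replicate 2 as well.

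**Figure D4:**
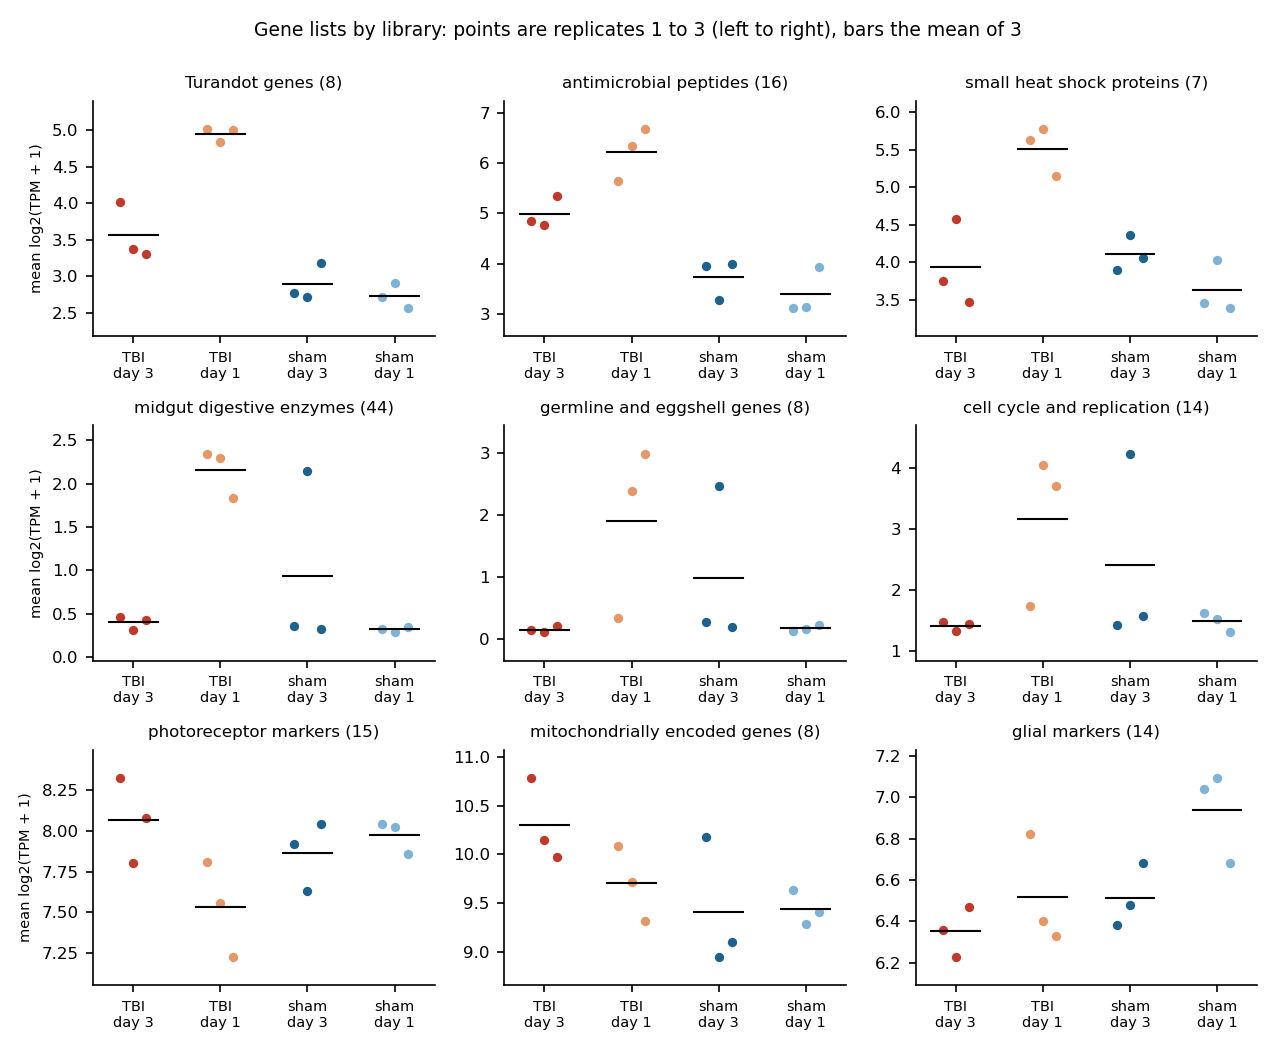
Mean log2(TPM + 1) over the genes of 9 lists (number of genes in brackets) in each library, with bars at the mean of 3 libraries. Midgut, germline and cell cycle genes are high in sham day 3 replicate 2 as well as in TBI day 1, germline and cell cycle genes are low in TBI day 1 replicate 1, and the photoreceptor bar of TBI day 1 lies lowest.

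Few genes rose. The phototransduction channel gene trp was at 227, 262 and 279 TPM on TBI day 3 and at 157, 166 and 139 TPM on TBI day 1 (log2 difference 0.73, standard error 0.13, adjusted p = 0.0956). It is close to the threshold and was called in 1 of 13 alternatives. CG4842 was at 225, 207 and 250 TPM on TBI day 3 and at 146, 131 and 145 TPM on TBI day 1 (log2 difference 0.69, adjusted p = 0.0821), and was called in 4 of 13. Of the 9 rises, 7 had a mean under 1 TPM on TBI day 1, and 4 were at 0 in all 3 of those libraries. Irbp, the fly Ku70 of DNA end joining, was at 3.35, 2.01 and 1.99 TPM on TBI day 3 and listed at 0 on TBI day 1 (adjusted p = 0.0103). In sham flies Irbp was at 0, 1.69 and 0 TPM on day 3 and at 1.84, 2.73 and 2.17 TPM on day 1. Hn, which encodes phenylalanine hydroxylase, Lsd-1, a perilipin of lipid droplets, the ribosomal protein gene RpS28a, CG30414 and 1 gene without a name rose at similarly low levels. The mean of Lsd-1 was 2.05 TPM on TBI day 3 and 0.177 TPM on TBI day 1, next to 3.44 TPM on sham day 3 and 3.43 TPM on sham day 1.

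Most other phototransduction genes were higher on TBI day 3 as well, without passing. Of 15 photoreceptor genes, 14 had a difference above 0 (median 0.63), 9 had an unadjusted p under 0.05 in limma, where 2.06% of all genes were higher at that level, and 1 was called. The ultraviolet opsin gene Rh3 was at 975, 855 and 1123 TPM on TBI day 3 and at 690, 663 and 644 TPM on TBI day 1 (log2 difference 0.56, adjusted p = 0.231). Summed over the list, which is dominated by the rhodopsin gene ninaE, the level was 50505, 43491 and 57070 TPM on TBI day 3 and 35990, 29304 and 27339 TPM on TBI day 1. The sums of the 2 days did not overlap, while the mean log2(TPM + 1) over the list did by a little, at 7.80 in TBI day 3 replicate 2 and 7.81 in TBI day 1 replicate 1. The sham sums were 51177, 45066 and 55686 TPM on day 3 and 47371, 48946 and 47382 TPM on day 1, so TBI day 1 stood low by its sums. By the mean log2(TPM + 1) it did not stand apart, since sham day 3 replicate 2 was at 7.63. The called gene trp was at 139, 230 and 284 TPM on sham day 3, which overlapped with TBI day 1. Photoreceptors are neurons of the eye, and their part in the RNA pulled down was not tested.

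Other genes were higher on TBI day 3 without passing. All 8 genes listed from the mitochondrial genome had a difference above 0 (median 0.60), with 2 at an unadjusted p under 0.05 in limma, where 2.06% of all genes were higher. Of these genes mt:ND4L, a subunit of respiratory complex I, was at 468, 593 and 404 TPM on TBI day 3 and at 235, 284 and 251 TPM on TBI day 1 (log2 difference 0.91, adjusted p = 0.105). Among genes averaging 10 TPM or more without overlap, the next by p were CG13670, Agpat2, se, Srg3, CG6426, Agxt, Cyp6g1, Argk1 and P5cr-2. Argk1, the arginine kinase that buffers ATP, was at 38.4, 38.9 and 32.2 TPM on TBI day 3 and at 23.3, 19.8 and 14.6 TPM on TBI day 1 (log2 difference 0.91, adjusted p = 0.184). Cyp6g1, a cytochrome P450 known for breaking down insecticides, was at 147, 124 and 151 TPM on TBI day 3 and at 92.5, 50.8 and 65.4 TPM on TBI day 1 (log2 difference 1.04, adjusted p = 0.168). Of 71 cytochrome P450 genes, 52 had a difference above 0 and 0 rose past the thresholds. The 1 call in that list was a fall: Cyp4g1, which makes cuticular hydrocarbons in oenocytes, was at 18.5, 1.55 and 11.1 TPM on TBI day 3 and at 286, 190 and 121 TPM on TBI day 1 (log2 difference -4.48, adjusted p = 0.0682), with 117 TPM in sham day 3 replicate 2, and the call held in 7 of 13 alternatives. In the other direction, 40 of 41 proteasome subunit genes were below 0 (median -0.34), with 10 at an unadjusted p under 0.05 in limma and 0 called. Of all genes tested, 7.01% were lower at that p. Summed proteasome levels were 1551 to 1688 TPM on TBI day 3 and 1708 to 2434 TPM on TBI day 1, and sham day 3 replicate 2 held 2093 TPM.

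Uninjured flies were compared over the same days to see which changes come with time alone. Of 11657 genes, 0 passed in limma, and the unadjusted p was under 0.05 for 392, of which 264 (2.26% of the genes) were lower on sham day 3. Glial markers were among the lower ones, with all 14 below 0 (median -0.44) and 6 at an unadjusted p under 0.05. Gat was at 154, 146 and 143 TPM on sham day 3 and at 257, 259 and 198 TPM on sham day 1, with no overlap, as for 500 genes (4.29%) downward and 298 (2.56%) upward. The 45 falls of injured flies had a median sham difference of 0.03 and the 114 one of 0.97. By definition sham day 3 replicate 2 stood apart for the 114 and did not for the 45, so both medians depend in part on that split. Injured and sham steps share no library.

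**Figure D5:**
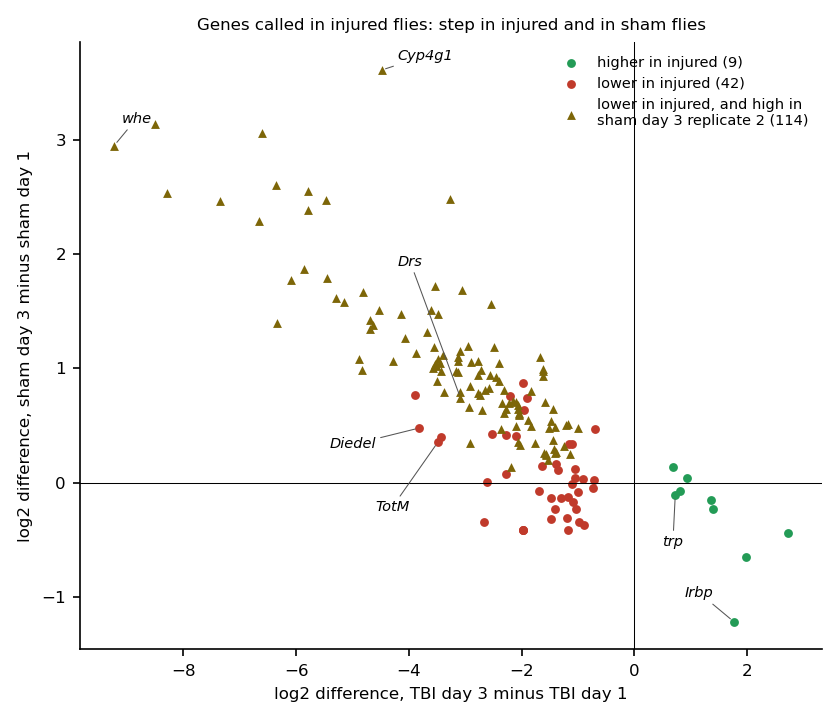
Log2 difference of day 3 minus day 1 in injured flies (x axis) against sham flies (y axis) for the 165 called genes with a value in both. Genes high in sham day 3 replicate 2 (triangles) lie above 0 on the sham axis by their definition. The other falls (red), defined by that library not standing apart, have a median of 0.03 on it.

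Whether the step from day 1 to day 3 differed between injured and sham flies was tested as an interaction in limma over the 12 libraries, where libraries of the same day and replicate number formed a block. Of 12446 genes, 2 passed (0.0161%), with 965 (7.75%) more negative and 655 (5.26%) more positive in injured flies at an unadjusted p under 0.05. Hsp26 was 1, with a difference of steps of -4.69 (adjusted p = 0.0245), and its sham day 3 replicate 2 value of 117 TPM enters that difference. CG31957, whose function is not given here, was the other, at 0.00153, 0 and 0 TPM on TBI day 3, 3.49, 2.86 and 4.03 TPM on TBI day 1 and listed at 0 in all 6 sham libraries (difference of steps -2.15, adjusted p = 0.0402). Of the 45 falls, 43 had an unadjusted p under 0.05 in this test, which uses the same injured libraries that selected them. The call of Hsp26 was lost in 6 of 14 alternatives and that of CG31957 in 6 of 13, with adjusted p between 0.00127 and 0.286 and between 0.000198 and 0.366. Among the genes described above, the differences of steps were -4.30 for Diedel (adjusted p = 0.176), -3.84 for TotM (adjusted p = 0.149), -1.10 for spz (adjusted p = 0.121), -1.17 for Mmp1 (adjusted p = 0.194) and -1.18 for Act5C (adjusted p = 0.121). These did not pass with the blocks. Without them Diedel, TotM, spz and Act5C passed (adjusted p = 0.0902, 0.0374, 0.0788 and 0.0424) and Mmp1 did not (adjusted p = 0.156). With the blocks and a minimum mean of 1 TPM the same genes passed (adjusted p = 0.0755, 0.0608, 0.0674 and 0.0608) and Mmp1 did not (adjusted p = 0.119). In the fit of all 17 libraries, which had no blocks, none of them passed (adjusted p = 0.125 to 0.368). A further fit, chosen after the values were seen, left out both the blocks and sham day 3 replicate 2. In it Diedel, TotM, spz, Mmp1 and Act5C all passed (adjusted p = 0.0322, 0.0029, 0.0742, 0.00727 and 0.014). Whether their steps differ between injured and sham flies thus depends on the block, the filter and the libraries fitted. The libraries' deviations paired replicate 1 by number, and replicates 2 and 3 not clearly. The count was 60 without the blocks and between 0 and 87 when 1 replicate number of a day was left out, the highest without replicate 2 of day 3, and without the blocks and sham day 3 replicate 2 together, a choice made after the values were seen, it was 167.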

How the data were processed

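The deposited table holds TPM (transcript abundance scaled to a fixed library total), which the authors obtained by quantifying amplified-cDNA reads with Kallisto (version not given in the sources used here) against FlyBase transcripts and summing transcripts to genes with tximport. TPM is scaled for transcript length and library size, so read depth cannot be recovered, no counting error is given and a count model could not be used. The methods name FlyBase release r6.10 and the deposited table carries r6.14 in its name. Replicates were kept apart. All table columns were assigned to samples by their names.

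Values were taken as log2(TPM + 1) without further scaling, which understates changes of genes near 0. Genes above 0 in at least 1 library compared were tested with limma 3.58.1 (R 4.3.3, empirical Bayes with a trend), 3 against 3 libraries without a block, and the interaction with 6 blocks of day and replicate number. A call needed a log2 difference of 0.6 or more in size with a Benjamini-Hochberg adjusted p no larger than 0.1. In simulated data with 200 changed genes the injured comparison recovered 77% of genes moved by 1.5 on the log2 scale and 95% of those moved by 3. Of its calls, 11.3% were false. The changed genes were drawn from those averaging at least 10 TPM, and noise was drawn independently for each library. Of the 159 falls, 82 had a mean of at least 10 TPM in the higher group, and 114 shared a pattern by library. The simulated rates therefore need not hold for the calls reported.

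Gene names came from the reference table for 13127 genes and from the paper's tables for 133, and 219 stayed unnamed; positions are those of the Ensembl annotation of release 6, counted from 1. Columns of sample TPM were the only values used. Genes named were the 12 largest falls and rises with a mean of at least 10 TPM in the higher group and no overlap (rises filled up with genes not called, by p), the immune, stress and study-named genes, the 5 genes of lowest interaction p and members of the other lists. Diedel, Acp1, CG42867, CG3348, CG16978, Dgat2, AnxB9, r-l, the actin list and low-level rises were named after their values were seen. Some genes that met these rules are not reported here. The members and lists were chosen with earlier results of these data known. Alternatives were a replicate block, median-of-ratios and upper-quartile scaling, a pseudocount of 0.1, a minimum mean of 1 TPM, stricter thresholds (log2 difference of 1, adjusted p of 0.05), 1 fit of all 17 libraries and each library left out. Plots were made in Python 3.11.15 (matplotlib 3.10.9).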

Additional observations from a re-analysis of the deposited data

Results flagged for a closer look

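Hsp26 had a step from day 1 to day 3 that differed between injured and sham flies by -4.69 on the log2 scale in limma's interaction test (adjusted p = 0.0245). Its values were 10.8, 43.9 and 7.5 TPM on TBI day 3, 110, 173 and 139 TPM on TBI day 1, 15.7, 117 and 19.2 TPM on sham day 3 and 8.98, 14.2 and 8.2 TPM on sham day 1. The call was lost without the block (adjusted p = 0.134), in the fit of all 17 libraries and without replicate 3 of day 3 or any replicate number of day 1 (adjusted p of 0.00127 to 0.286 over the alternatives). CG31957 differed in the same test by -2.15 (adjusted p = 0.0402) and was above 1 TPM in the 3 TBI day 1 libraries only, out of the 12 compared. Its call held without the block (adjusted p = 0.000289) and was lost in the fit of all 17 libraries and in 5 of the 6 fits that left out a replicate number (0.000198 to 0.366 over the alternatives).

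The midgut digestive enzyme genes had a summed level of 992 TPM in TBI day 7 replicate 1, a library outside the comparison, where TBI day 7 replicate 2 held 88.6 TPM and the sham libraries of day 7 held 64 to 119 TPM. The high libraries of this gene group were thus the 3 of TBI day 1, 1 of TBI day 7 and 1 of sham day 3.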

How the results depend on the processing

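Over 13 alternatives, 19 of 55 named genes with a call were called in every one, among them Diedel, TotM, spz, Mmp1 and cib, and no called value changed sign. Of the uncalled genes given in the text, these changed sign when a library was left out: Rel (-0.25 to 0.24), drpr (-0.51 to 0.05), repo (-0.23 to 0.26), Listericin (-0.50 to 0.30), AttC (-0.87 to 0.04) and twf (-0.33 to 0.08). The count of injured calls was 168 and lay between 132 and 223 under other scalings, pseudocount, filter, thresholds and the fit of all 17 libraries, and between 94 and 475 with 1 library left out. The sham count was 0 and became 2 under either scaling, with a minimum mean of 1 TPM and in the fit of all 17 libraries, and lay between 0 and 2 with a library left out. The interaction count was 2 and became 4 with a pseudocount of 0.1, 100 with a minimum mean of 1 TPM, 9 in the fit of all 17 libraries and between 0 and 87 with a replicate number of a day left out. It was 167 without the block and without sham day 3 replicate 2. The cause of these changes was not tested.

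Same-numbered TBI libraries of the 2 days deviated together with correlations of 0.476, 0.0942 and 0.159, so the numbers were not taken to pair them. TBI day 3 replicates 2 and 3 correlated best with TBI day 1 replicates 3 and 2. Same-numbered TBI and sham libraries form the blocks of the interaction. Their correlations were 0.451, 0.143 and -0.0291 on day 3 and 0.376, 0.00423 and 0.216 on day 1. On both days replicate 1 of TBI and of sham deviated together, and each correlated below 0 with the other numbers. TBI replicate 2 correlated more with sham replicate 3 (0.204 on day 3, 0.179 on day 1) than with sham replicate 2. The pairing by number thus held for replicate 1 and was not clear for replicates 2 and 3. With the replicate number as a block, 170 genes were called, 142 of them the same genes. The block left the sham count at 0, and without it the interaction count was 60.

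TPM keeps no depth, so values near 0 have unknown counting error.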

Other observations

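Some gene groups not described above differed little. None of 9 clock genes passed in limma, 0 of them with an unadjusted p under 0.05 (median 0.09). Among 10 genes of the unfolded protein response, 0 passed, with 3 lower at an unadjusted p under 0.05 (median -0.03). Of 42 odorant binding protein genes, 0 passed, with 6 higher and 1 lower at that level, where 2.06% of all genes were higher and 7.01% lower. The yolk protein gene Yp1, which is made in female fat body and ovary, was at 4108, 13076 and 11225 TPM on TBI day 3 and at 8839, 3531 and 5921 TPM on TBI day 1, and the days overlapped.

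EMC4 was listed at 0.223, 25.3 and 38.3 TPM on TBI day 3 and at 1.19e-05 TPM or less on TBI day 1, next to 71.4, 74.1 and 46 TPM on sham day 3 and 57.8, 28.8 and 40 TPM on sham day 1. TBI day 3 replicate 1 was thus close to TBI day 1, and the gene did not pass (log2 difference 3.43, adjusted p = 0.484). CG34227 had 154, 704 and 433 TPM on TBI day 3 and 87.6, 114 and 162 TPM on TBI day 1, with wide spread within the days (log2 difference 1.61, adjusted p = 0.446).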
